A study of Homo sapiens with 18 samples.

Results

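CYTL1, MS4A3, VIM, EBF3 and WT1 are 5 genes whose transcripts dropped in NB4 cells given all-trans retinoic acid (ATRA). They were picked by name, for large falls under ATRA in these same arrays, out of 18417 genes that had a probe set of their own. Each of the 5 was read by a single probe set, annotated to that gene alone. Because the falls chose the genes, every ATRA change of these genes is given as a description with no test, and so is the difference between genotypes in that change. Tests are given for what the choice did not use, namely the genotypes at one time and the ATRA times within one genotype. WT1 had the smallest fall of the 5, with a rank between 225 and 386 among all genes, while the others stood among the 23 deepest in each of the 4 ATRA comparisons.

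NB4 is an established human line from acute promyelocytic leukaemia, and ATRA drives it towards granulocytes. The arrays cover 6 groups of 3: NB4 cells labelled TG2 knockout without ATRA, after 48 h and after 72 h of 1 µM ATRA, and wild-type NB4 cells in the same 3 states. TG2 is transglutaminase 2, the product of TGM2. The titles call the cells knockout while the sample codes carry KD, and neither says how TG2 was lost or whether the cells are 1 clone. The labels call the replicates biological and say nothing of separate cultures, so the p-values measure the spread between these samples.

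NB4 cells carry the PML-RARA fusion, a retinoid receptor joined to PML that holds promyelocytes back from maturing. ATRA at drug doses leads to breakdown of the fusion protein, and the cells then shut down progenitor genes and turn on genes of the neutrophil. CYTL1 is a small secreted protein first described in CD34+ bone marrow cells. MS4A3 is a membrane-spanning protein of basophils and granulocyte precursors, and its mouse counterpart marks granulocyte-monocyte progenitors. VIM encodes vimentin, an intermediate filament protein of mesenchymal and blood cells. EBF3 is a DNA-binding helix-loop-helix protein of the family of EBF1, the B-cell factor, and WT1 is a zinc finger transcription factor of kidney development that is often high in acute leukaemia.

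The stretch just before the start site is shown for CYTL1, VIM and MS4A3, each of which has 1 annotated start, as EBF3 also has. The windows hold the 250 bases upstream of the RefSeq start (GRCh38.p14), read 5′ to 3′ on the strand of the gene, at chr4:5019459-5019708 on the minus strand for CYTL1, chr10:17227991-17228240 on the plus strand for VIM and chr11:60056415-60056664 on the plus strand for MS4A3. Capitals mark matches to a GC box (GGGCGG), a RUNX motif (TGTGGT) or an ETS motif (AGGAAG), and a match on the other strand appears as its reverse complement.
CYTL1: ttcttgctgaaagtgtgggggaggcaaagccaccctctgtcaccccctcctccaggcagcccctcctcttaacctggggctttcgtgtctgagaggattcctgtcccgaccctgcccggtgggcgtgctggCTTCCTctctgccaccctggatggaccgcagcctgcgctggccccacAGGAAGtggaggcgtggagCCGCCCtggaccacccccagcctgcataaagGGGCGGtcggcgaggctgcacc
VIM: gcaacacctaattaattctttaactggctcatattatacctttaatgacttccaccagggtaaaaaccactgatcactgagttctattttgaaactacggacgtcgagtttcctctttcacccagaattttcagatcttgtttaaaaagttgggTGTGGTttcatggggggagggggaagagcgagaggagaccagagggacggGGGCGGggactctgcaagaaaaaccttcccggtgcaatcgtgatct
MS4A3: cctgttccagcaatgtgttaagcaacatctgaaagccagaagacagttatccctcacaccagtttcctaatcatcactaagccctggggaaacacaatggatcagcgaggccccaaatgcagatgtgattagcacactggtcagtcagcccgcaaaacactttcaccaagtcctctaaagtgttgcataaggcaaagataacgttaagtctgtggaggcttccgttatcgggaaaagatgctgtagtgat

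Both strands were searched for 5 motifs, the 3 above and AGGTCA, the core that retinoid receptors bind, and TATAAA, the TATA box. CYTL1 held 2 GC boxes, which began 53 and 22 bases upstream of the start, and 2 ETS matches at 119 and 72 bases. VIM held a RUNX match at 96 bases and a GC box at 46 bases, and MS4A3 held no match to any of the 5 motifs. EBF3 (chr10:129964275-129964524, minus strand) had 3 GC boxes, at 235, 102 and 72 bases, and WT1 (chr11:32435540-32435789, minus strand, the outermost of 4 annotated starts) had 1 at 160 bases. None of the 5 windows held AGGTCA or TATAAA, which 12.1% and 10.7% of all 35116 RefSeq windows of this length held. GC boxes stood in 42.6% of all windows, ETS matches in 28.7% and RUNX matches in 11%. A match of this kind is a description of letters and not a binding site.

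The EBF3 window was the richest in CpG, with 46 CpG and 81.2% G and C, at the 99.7th percentile of all windows. WT1 had 19 CpG and 70.4% G and C, and CYTL1 had 11 CpG and 66.8%. VIM had 8 CpG and 46%, and MS4A3 had 5 CpG and 46.4%, against a median of 11 CpG and 58% over all windows. MS4A3, the poorest of the 5 in CpG, stood at the 38.1st percentile. The gene bodies lie at chr4:5014586-5019458 (CYTL1), chr11:60056665-60071115 (MS4A3), chr10:17228241-17237593 (VIM), chr10:129835233-129964274 (EBF3) and chr11:32387775-32435539 (WT1).

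The values are log2 signals as deposited, with array medians between 6.12 and 6.26. The first principal component held 57.1% of the variance and set the untreated arrays (−89.9 to −84.7) apart from the ATRA arrays. On it 4 ATRA arrays lay nearer the untreated side, at 17.5 to 31.2 against 46.3 to 56.6 for the other 8: knockout 48 h replicates 1 and 3, knockout 72 h replicate 2 and wild-type 48 h replicate 1. Leaving out these 4 arrays, a choice made after seeing the data, leaves 1 knockout array at 48 h, and values without them are given beside the results they moved most. TGM2 was 1.31 ± 0.19 lower (SE, adjusted p = 0.0345) in knockout than in wild-type cells at 48 h and 1.13 ± 0.19 lower (adjusted p = 0.0267) at 72 h, in the limma fit. Its log2 signal still averaged 10.95 and 11.24 at the 2 times in knockout cells, against 12.27 and 12.37 in wild-type cells and 6.39 and 6.43 in untreated knockout and wild-type cells. Over other settings the adjusted p of this check ran between 0.00259 and 0.997 at 48 h and between 0.0102 and 0.313 at 72 h. Among markers, 3 genes of myeloid cells ranked between the 70.7th and 99.8th percentile of all probe sets in every group, MPO highest. Those of monocytes ranked between 16.5 and 66, of lymphocytes between 14.9 and 72.8, of erythroid cells between 35.8 and 57.8 and of stromal cells between 12.2 and 67.3. These ranks describe probe sets, which differ in brightness for the same amount of RNA, and the range of lymphocytes overlaps that of myeloid cells.

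CYTL1 had the deepest fall of all 18417 genes in each of the 4 ATRA comparisons. In knockout cells its log2 signal was 11.49, 11.48 and 11.46 untreated, 6.83, 6.71 and 6.49 at 48 h, and 6.27, 6.41 and 6.87 at 72 h. In wild-type cells it was 11.69, 11.65 and 11.69 untreated, 6.35, 6.57 and 6.32 at 48 h, and 6.40, 6.74 and 6.65 at 72 h. All 12 ATRA arrays lay far below all 6 untreated ones, and at both ATRA times the genotypes overlapped. The difference from untreated cells was −4.80 ± 0.14 at 48 h and −4.96 ± 0.14 at 72 h in knockout cells, and −5.26 ± 0.14 and −5.08 ± 0.14 in wild-type cells (SE, n = 3 arrays per group). On a linear scale 3.59% and 3.21% of the untreated signal was left in knockout cells, and 2.60% and 2.96% in wild-type cells. With ATRA the group means of CYTL1 lay between 6.41 and 6.68, near the array medians. They ranked between the 54.3rd and 58.3rd percentile of all probe sets, with no detection call. How much of the signal left is background was not tested. The 4 comparisons share their untreated arrays in pairs, and in bulk RNA fewer expressing cells and less RNA per cell cannot be told apart.

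MS4A3 lost most of its signal in all 12 ATRA arrays, and at 72 h the knockout arrays held the higher values. In knockout cells it gave 10.51, 10.45 and 10.69 untreated, 7.72, 7.28 and 7.68 at 48 h, and 7.34, 8.22 and 7.65 at 72 h. In wild-type cells it gave 10.63, 10.62 and 10.65 untreated, 7.58, 7.24 and 7.04 at 48 h, and 6.86, 7.10 and 6.60 at 72 h. At 72 h all 3 knockout arrays were above all 3 wild-type arrays, and at 48 h the genotypes overlapped. The fall from untreated cells was −2.99 ± 0.20 at 48 h and −2.81 ± 0.20 at 72 h in knockout cells, against −3.35 ± 0.20 and −3.78 ± 0.20 in wild-type cells (SE). That left 12.6% and 14.2% of the untreated signal in knockout cells and 9.83% and 7.28% in wild-type cells.

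VIM was lower in all 12 ATRA arrays than in any untreated array, but by unequal amounts. In knockout cells vimentin mRNA stood at 10.80, 10.93 and 10.99 untreated, 6.07, 6.73 and 8.03 at 48 h, and 7.82, 6.53 and 7.80 at 72 h. In wild-type cells it stood at 10.81, 10.78 and 10.83 untreated, 6.14, 6.68 and 8.65 at 48 h, and 8.07, 7.40 and 8.37 at 72 h. The lowest and the highest ATRA arrays of either genotype are both 48 h arrays, and the genotypes overlapped at each ATRA time. The difference from untreated cells was −3.96 ± 0.55 at 48 h and −3.52 ± 0.55 at 72 h in knockout cells, and −3.65 ± 0.55 and −2.86 ± 0.55 in wild-type cells (SE). Leaving out the 4 arrays apart on the first component gave −4.18 and −3.10 in knockout cells and −3.14 and −2.86 in wild-type cells.

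EBF3 gave close values within each group, before and after its fall. In knockout cells its signal was 10.17, 10.19 and 10.15 untreated, 7.20, 6.69 and 6.80 at 48 h, and 6.51, 6.67 and 6.65 at 72 h. In wild-type cells it was 10.21, 10.18 and 10.18 untreated, 6.72, 6.82 and 6.43 at 48 h, and 6.25, 6.78 and 6.54 at 72 h. The genotypes overlapped in all 3 states, and in knockout cells all 72 h arrays were just below all 48 h arrays. The difference from untreated cells was −3.27 ± 0.15 and −3.56 ± 0.15 at 48 and 72 h in knockout cells, and −3.53 ± 0.15 and −3.67 ± 0.15 in wild-type cells (SE). Between 7.87% and 10.3% of the untreated signal was left over the 4 comparisons. The ATRA group means of EBF3 lay between 6.52 and 6.90, also near the array medians. They ranked between the 55.9th and 61.9th percentile of all probe sets, and the share of background was not tested here either.

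WT1 had the shallowest fall of the 5. In knockout cells the array values were 9.68, 9.46 and 9.52 untreated, 8.03, 8.03 and 7.95 at 48 h, and 7.72, 8.06 and 7.88 at 72 h. In wild-type cells they were 9.49, 9.50 and 9.53 untreated, 7.83, 7.91 and 7.80 at 48 h, and 6.99, 8.17 and 7.63 at 72 h. At 48 h all 3 knockout arrays lay just above all 3 wild-type arrays, and at 72 h the wild-type arrays spread to both sides of the knockout arrays. The difference from untreated cells was −1.55 ± 0.20 at 48 h and −1.67 ± 0.20 at 72 h in knockout cells, and −1.66 ± 0.20 and −1.91 ± 0.20 in wild-type cells (SE). The untreated signal was thus divided by 2.93 and 3.17 in knockout cells and by 3.16 and 3.76 in wild-type cells, against 27.9 to 38.4 for CYTL1.

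**Figure D1:**
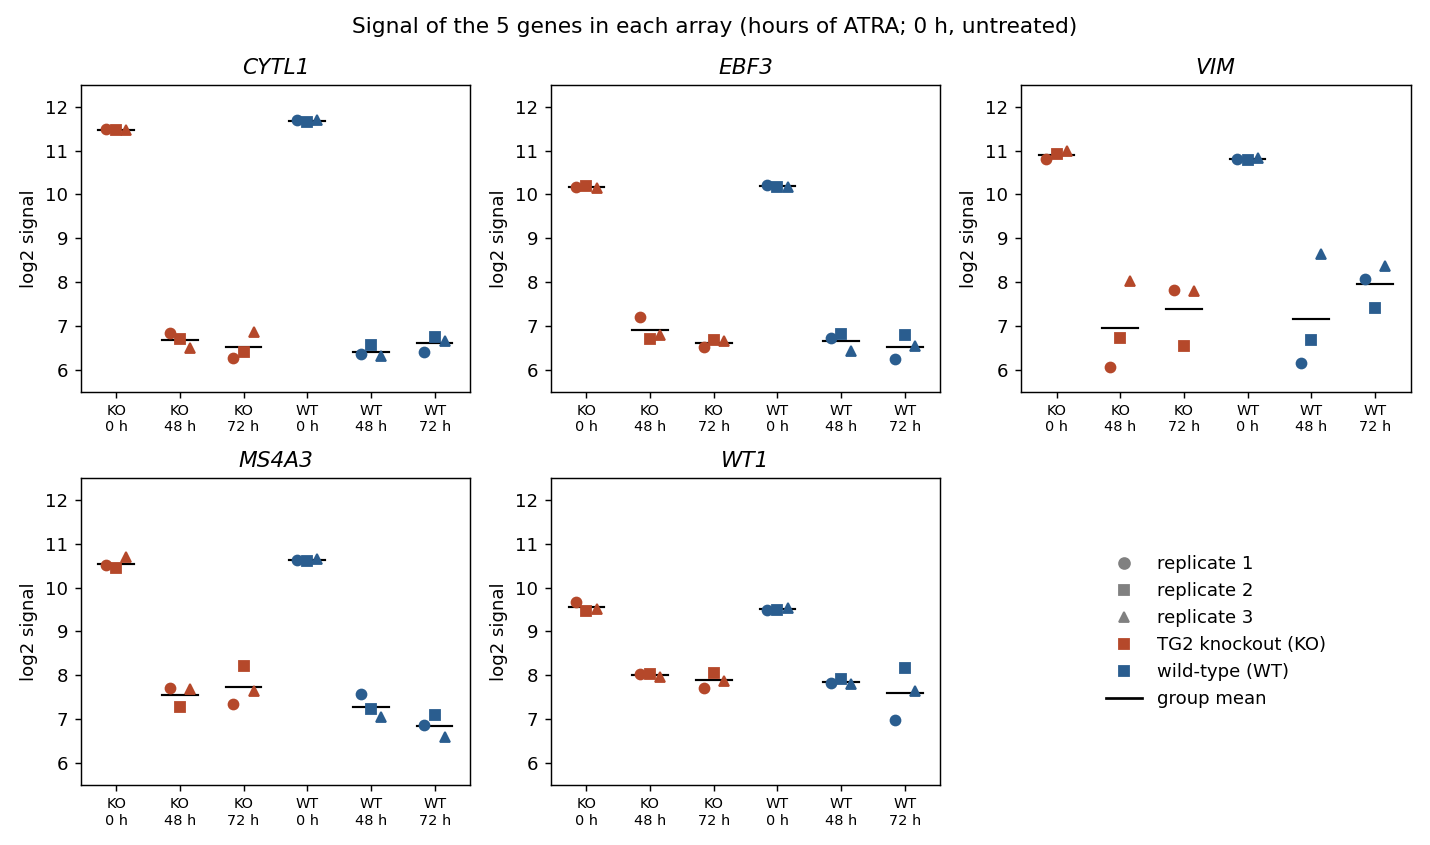
Log2 signal of each gene in each of the 18 arrays, in 1 panel per gene, with knockout groups (red) left of wild-type groups (blue), marker shape for the replicate number and a bar at the group mean. All 5 genes are lower in every ATRA array than untreated, and VIM alone ranges over more than 1 log2 unit within the 48 h and 72 h knockout groups. In the 72 h wild-type group WT1 ranges over 1.18 and VIM over 0.97.

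Side by side, the change under ATRA in knockout minus that in wild-type cells was largest for MS4A3 at 72 h, at 0.97, and smallest in size for EBF3 and WT1, at 0.11 for EBF3 at 72 h and 0.11 for WT1 at 48 h. It was 0.36 for MS4A3 at 48 h, 0.46 and 0.12 for CYTL1 at 48 and 72 h, and −0.31 and −0.66 for VIM. A positive value means a smaller fall in knockout cells. These differences contain the falls that chose the genes and carry no test. Over all probe sets the median change under ATRA was 0.14 and 0.13 in knockout cells at 48 and 72 h, and 0.10 and 0.12 in wild-type cells. The falls would be slightly deeper with each array set to its own median. After quantile normalization all falls were shallower, such as −1.28 in place of −1.55 for WT1 in knockout cells at 48 h. All falls kept their sign in each of the 28 other settings tried, and moved by less than the SD of the gene between ATRA arrays of 1 group (0.21 for CYTL1, 0.22 for EBF3, 0.31 for MS4A3 and WT1, 0.94 for VIM).

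**Figure D2:**
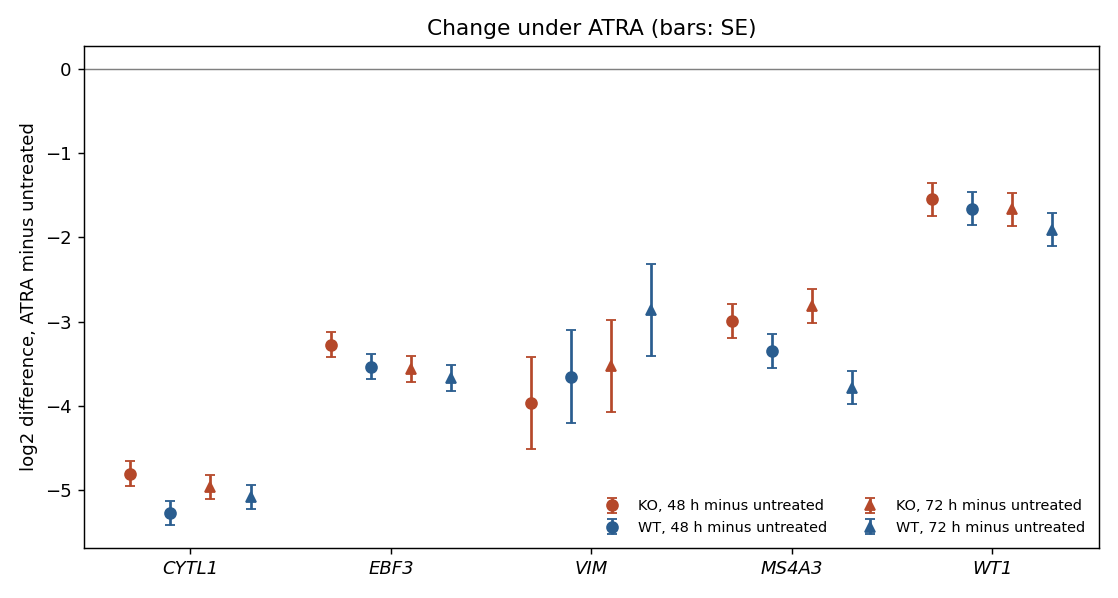
Log2 difference from untreated cells of the same genotype for each gene at 48 h (circles) and 72 h (triangles), knockout in red and wild-type in blue, with SE bars. CYTL1 lies between −5.26 and −4.80, WT1 between −1.91 and −1.55, and the bars of VIM (0.55) are the longest.

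The study set knockout against wild-type cells at each time, a comparison that did not choose these genes. In the limma fit none of the 5 passed an adjusted p under 0.05 in untreated cells, where 0.00601% of all 33297 probe sets passed, at 48 h, where 0.021% passed, or at 72 h, where 0.0961% passed. With so few calls in all, 0 of 5 is near the background. At an unadjusted p under 0.05, 382, 1972 and 3713 probe sets passed untreated, at 48 h and at 72 h, and of the 5 genes MS4A3 at 72 h alone.

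MS4A3 was 0.88 ± 0.20 higher in knockout than in wild-type cells at 72 h (SE, 95% interval 0.46 to 1.31), or 1.84-fold, with group means of 7.74 ± 0.45 and 6.85 ± 0.25 (SD, n = 3 each). Its unadjusted p was 0.00042 and its adjusted p 0.115, so it did not pass. Over the 28 other settings the difference ran from 0.64 to 1.08 and the adjusted p from 0.0519 to 0.662. The lowest difference and the lowest p come together when the 4 arrays apart on the first component are left out. Among these, knockout 72 h replicate 2 holds the highest MS4A3 value at that time. Leaving out that array alone gave the same difference, 0.64. Why the p was lowest without the 4 arrays was not tested. Untreated, the difference was −0.08 (95% interval −0.51 to 0.34, adjusted p = 1), and at 48 h it was 0.27 (−0.15 to 0.70, adjusted p = 0.911).

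CYTL1 was 0.20 lower in untreated knockout than in untreated wild-type cells (SE 0.14, 95% interval −0.51 to 0.11, adjusted p = 1), and the 6 arrays did not overlap. The SD of the untreated groups was 0.015 and 0.023, far under the common spread that the fit takes over all 6 groups. When only these 6 arrays were fitted, the adjusted p was 0.0386, the single call of a member in any setting. At 48 h the CYTL1 difference was 0.26 (−0.04 to 0.57, adjusted p = 0.869) and at 72 h it was −0.08 (−0.39 to 0.23, adjusted p = 0.896).

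The genotypes did not overlap for 1 of 5 genes in untreated cells (CYTL1, lower), where 9.3% of all probe sets were lower and 8.84% higher without overlap. It was again 1 of 5 at 48 h (WT1, higher), where 3.79% of all probe sets were higher and 2.97% lower in this way. At 72 h it was MS4A3, against 6.65% of all probe sets higher and 5% lower. WT1 differed by 0.05 untreated (−0.37 to 0.46, adjusted p = 1), 0.16 at 48 h (−0.26 to 0.57, adjusted p = 0.959) and 0.29 at 72 h (−0.13 to 0.71, adjusted p = 0.641). EBF3 differed by −0.02 (−0.34 to 0.30, adjusted p = 1), 0.24 (−0.08 to 0.56, adjusted p = 0.885) and 0.09 (−0.23 to 0.40, adjusted p = 0.890) in the same order. For VIM the intervals were wide, with 0.10 untreated (−1.06 to 1.26, adjusted p = 1), −0.21 at 48 h (−1.37 to 0.95, adjusted p = 0.982) and −0.56 at 72 h (−1.72 to 0.60, adjusted p = 0.780). Under ATRA the VIM intervals reach past 1 log2 unit on 1 side. The untreated interval is as wide only because the fit takes 1 spread for all groups, while the untreated VIM arrays had an SD of 0.071. With 1 array left out at a time the VIM difference ran from −0.757 to 0.533 at 48 h and from −0.837 to −0.137 at 72 h. Without the 4 arrays apart it was −0.94 at 48 h (adjusted p = 0.395) and −0.14 at 72 h (adjusted p = 0.905), and EBF3 at 48 h was 0.07 (adjusted p = 0.898).

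**Figure D3:**
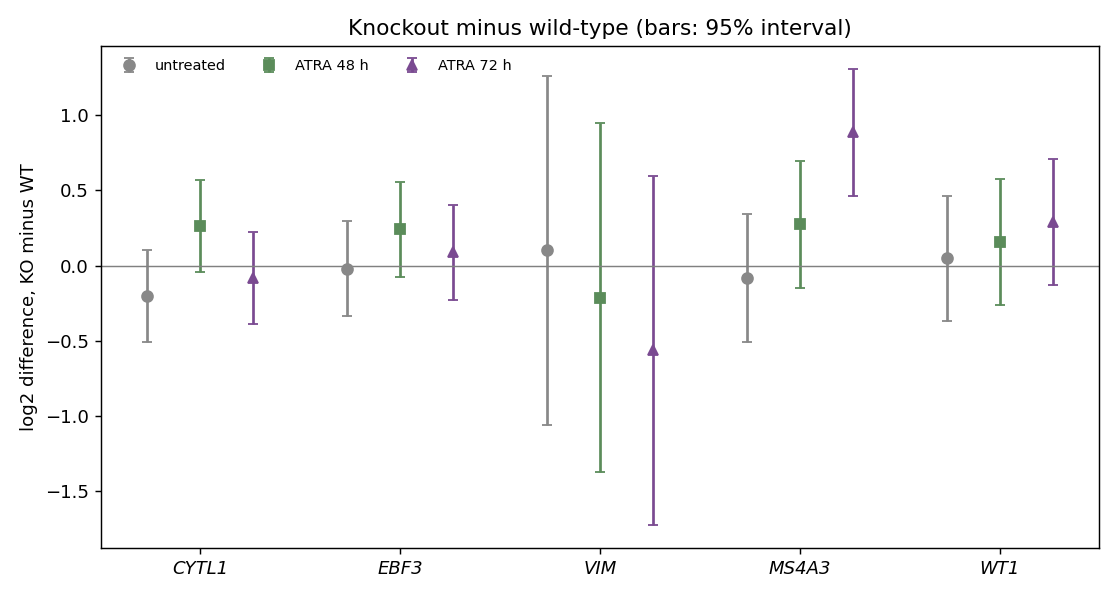
Log2 difference of knockout minus wild-type cells for each gene, untreated (grey circles), at 48 h (green squares) and at 72 h (purple triangles) of ATRA, with 95% intervals. The interval of MS4A3 at 72 h, 0.46 to 1.31, is the only 1 of the 15 that leaves out 0.

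The 2 ATRA times were compared within each genotype, to see whether the level reached at 48 h moved on by 72 h. No probe set passed in knockout cells (0% of 33297, with 2732 at an unadjusted p under 0.05) or in wild-type cells (0%, with 1952), and no member passed. Other settings called up to 3815 probe sets in knockout cells, with the 4 arrays left out and 1 knockout array at 48 h, and up to 7 in wild-type cells. No member was called in any of them, which with 1 array at 48 h says little about knockout cells. MS4A3 was lower by 0.43 at 72 h than at 48 h in wild-type cells (−0.86 to −0.01, unadjusted p = 0.0453, adjusted p = 0.843) and 0.18 higher in knockout cells (−0.25 to 0.60, adjusted p = 0.812). EBF3 was 0.29 lower at 72 h in knockout cells without overlap (−0.60 to 0.03, adjusted p = 0.639), as were 3.82% of all probe sets, while 4.08% were higher without overlap. In wild-type cells EBF3 was 0.13 lower (adjusted p = 0.966), and no member was without overlap there, against 4.32% of probe sets higher and 2.81% lower.

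For CYTL1 the difference between these times was −0.16 in knockout cells (−0.47 to 0.15, adjusted p = 0.767) and 0.18 in wild-type cells (−0.12 to 0.49, adjusted p = 0.934). For WT1 it was −0.12 (−0.53 to 0.30, adjusted p = 0.878) in knockout cells and −0.25 (−0.67 to 0.17, adjusted p = 0.934) in wild-type cells. VIM was higher by 0.44 in knockout cells (−0.72 to 1.60, adjusted p = 0.827) and by 0.79 in wild-type cells (−0.37 to 1.95, adjusted p = 0.920). None of these passed, and the intervals of VIM are the widest. With 1 array left out at a time the VIM difference ran from 0.00333 to 0.983 in knockout cells and from 0.282 to 1.54 in wild-type cells, and without the 4 arrays apart it was 1.08 and 0.28 (adjusted p = 0.247 and 0.860).

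VIM stood out by its spread between ATRA arrays of one group. Pooled over the 4 ATRA groups its SD was 0.94, at the 98.2nd percentile of all probe sets, against 0.071 in untreated cells. CYTL1, EBF3, MS4A3 and WT1 had ATRA SDs of 0.21, 0.22, 0.31 and 0.31, near the median of all probe sets, 0.265. At 48 h replicate 1 was lowest and replicate 3 highest for VIM in both genotypes. At 72 h replicate 2 was lowest in both genotypes. Of the 4 arrays apart on the first component, 3 had the lowest VIM value of their group (6.07, 6.53 and 6.14) and the other, knockout 48 h replicate 3, had the highest (8.03).

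Among genes chosen after their values were seen, the 5 whose departures from the group mean over the 12 ATRA arrays were nearest to those of VIM were ICAM1, LAMB3, ERRFI1, NFKB2 and ASB2. Their root mean square distance from VIM was 0.193 to 0.235 log2 units, against 0.767 for the departures of VIM itself. ICAM1, an adhesion protein that binds leukocyte integrins, had 9.69, 10.26 and 11.72 at 48 h and 11.64, 10.46 and 11.64 at 72 h in knockout cells. In wild-type cells it had 10.55, 11.12 and 12.28 at 48 h and 12.03, 11.41 and 12.26 at 72 h, so that its low and high arrays were those of VIM. Its change under ATRA went the other way, up by 2.40 ± 0.46 and 3.09 ± 0.46 in knockout cells and by 2.90 ± 0.46 and 3.49 ± 0.46 in wild-type cells (SE, largest adjusted p = 0.000696).

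LAMB3, a laminin chain, and ASB2, a ubiquitin ligase subunit known as a retinoid target in these cells, also rose in all 4 comparisons, by 2.54 to 3.71 and by 2.12 to 3.36. ERRFI1, an inhibitor of EGF receptor signalling, changed by −1.91 and −1.23 in knockout cells (adjusted p = 0.00277 and 0.0353), and its changes of −1.09 and −1.08 in wild-type cells did not pass (adjusted p = 0.0609 and 0.059). With the replicate block both wild-type changes passed (adjusted p = 0.0242 and 0.0232), and without the 4 arrays apart that at 72 h passed (adjusted p = 0.00821). The knockout call of ERRFI1 at 72 h was lost without any 1 untreated knockout array or 72 h replicate 1 or 2 (changes of −1.31 to −0.99), and after quantile normalization. NFKB2, a subunit of NF-kB, passed in wild-type cells at 72 h, at 1.10 (adjusted p = 0.0351), and this call was lost without any 1 untreated wild-type array or 72 h replicate 1 or 3 (0.93 to 1.11). Its change of 0.94 at 72 h in knockout cells (adjusted p = 0.0684) passed with the replicate block (adjusted p = 0.0327). Without the 4 arrays apart NFKB2 passed in knockout cells at 72 h, at 1.22 (adjusted p = 0.00691), and in wild-type cells at 48 h, at 0.98 (adjusted p = 0.0213). So genes that followed VIM from array to array changed under ATRA in either direction. What the arrays of 1 group differed in was not tested.

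**Figure D4:**
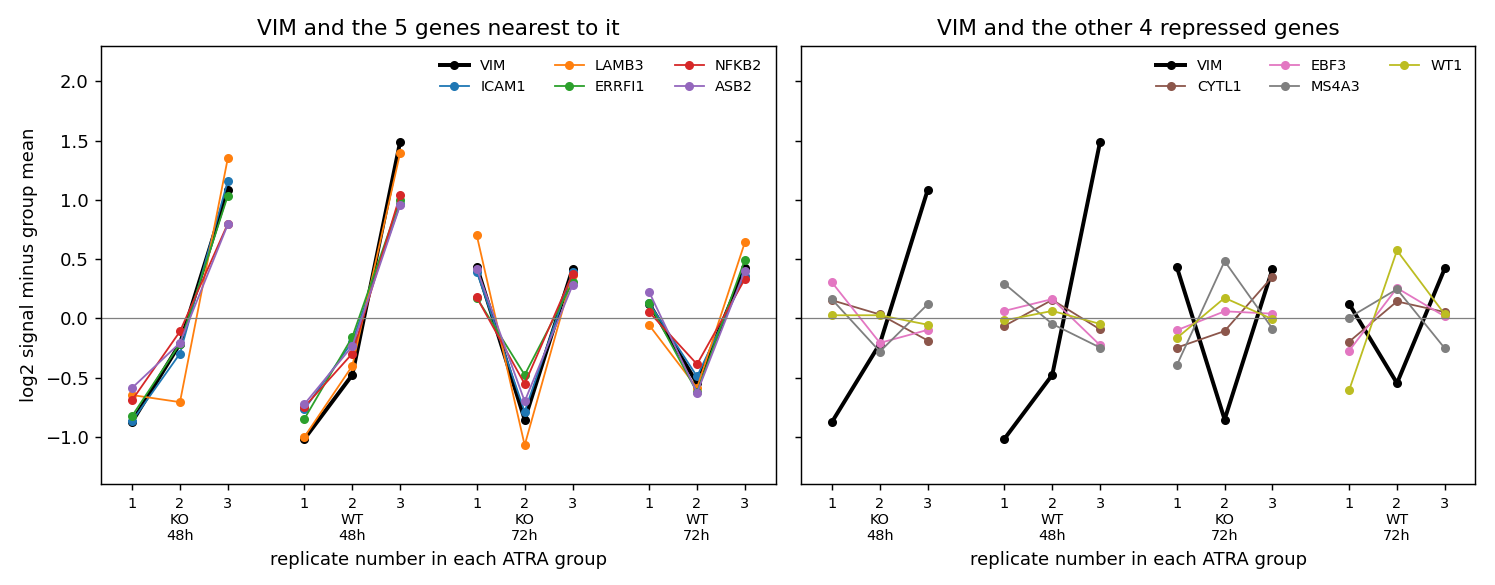
Log2 signal minus group mean in each of the 12 ATRA arrays, with replicate numbers along the axis, for VIM and the 5 genes nearest to it (left) and for VIM and the other 4 repressed genes (right). VIM spans −1.02 to 1.49, its neighbours rise and dip with it, and the other 4 repressed genes stay between −0.61 and 0.57.

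The nearest genes by pattern were sought by the root mean square difference over the 18 arrays, each gene centred on its own mean. The search covered 17357 genes, with the 5 themselves and symbols of unnamed or small RNA genes left out. EBF3 and MS4A3 were the closest pair of the 5, at 0.328, and CYTL1 and WT1 the farthest, at 1.59, since this measure keeps the size of the fall. CYTL1 and EBF3 were 0.736 apart, closer than any gene of the search was to CYTL1. Outside the 5, HDC, which makes histamine, was nearest to EBF3 (0.218) and to CYTL1 (0.783) and the third nearest to MS4A3 (0.301). Next came MAP7D3, a microtubule-binding protein, and NQO1, a quinone reductase, for EBF3 (0.288 and 0.300), and the lysozyme gene LYZ and LHFPL6 for CYTL1 (0.809 and 0.868). MS4A3 was nearest to RHEX (0.267), a membrane protein of erythroid maturation, and to MAP7D3 (0.282). No gene came close to CYTL1 for its size, whose own root mean square departure was 2.38.

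VIM had MMP9, a gelatinase, CYP1B1, a cytochrome P450, and LHFPL6 as its nearest genes, at 0.551, 0.616 and 0.658. WT1, with a smaller fall of its own (0.836), had CTNNAL1, DNAAF2 and MOK at 0.135, 0.181 and 0.182. The genes found in this way fell under ATRA by construction: the 6 group means of HDC were 9.60, 6.18 and 6.35 in knockout cells and 9.70, 6.14 and 6.07 in wild-type cells at 0, 48 and 72 h. With the 6 group means in place of the 18 arrays, 8 of the 15 names stayed among the 3 nearest.

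The wider families of the 5 genes were followed at 72 h, leaving the 5 out. Under ATRA 22.8% of all probe sets passed as higher and 19.2% as lower in knockout cells at 72 h, and 23.1% and 21% in wild-type cells (at 48 h 21.5% and 19.9% in knockout cells, 19.3% and 19.6% in wild-type cells). Of 12 measured relatives of MS4A3, 3 rose and 0 fell in knockout cells, and 2 rose and 0 fell in wild-type cells, with median changes of 0.39 and 0.26, against 0.13 and 0.12 over all probe sets. All relatives but TMEM176B had group means under the array medians, with no detection call, among them TMEM176A at 4.99 to 5.62. These counts and medians thus rest mostly on low signals. TMEM176A, an ion channel of the family, rose by 0.63 in knockout cells (adjusted p = 0.0075) and 0.51 in wild-type cells (adjusted p = 0.0244), the second call being lost without wild-type 72 h replicate 3 (0.33) or untreated replicate 2 or 3 (0.53 and 0.46). MS4A13 passed at 0.68 and 1.01 (adjusted p = 0.0193 and 0.00131), but its log2 signal was low, 2.72 with ATRA and 2.05 untreated in knockout cells and 2.94 and 1.93 in wild-type cells, far under the array medians and with no detection call. It was −0.13 in knockout cells after quantile normalization, its knockout call was lost without untreated replicate 1 or 3 or 72 h replicate 1 (0.63 to 0.68), and no member of the list passed in wild-type cells in that setting. None of the 12 relatives passed as lower at 72 h in any of the 28 other settings.

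Of 12 measured genes of the EBF family and the E-protein network, 3 rose and 2 fell in knockout cells and 4 rose and 3 fell in wild-type cells (median 0.10 and 0.22). TCF12, an E protein that pairs with tissue-specific helix-loop-helix factors, fell, with changes of −1.34 in knockout cells (adjusted p = 0.000312) and −1.67 in wild-type cells (adjusted p = 3.5e-05). The ID proteins, which bind E proteins and keep them off DNA, went up: ID1 by 1.05 and 0.96 and ID4 by 0.71 and 0.81 in knockout and wild-type cells. The ID4 call in knockout cells was lost without untreated replicate 3 (0.56) or 72 h replicate 1 (0.47). ID2 passed at 0.81 in wild-type cells (adjusted p = 0.0221) and did not in knockout cells at 0.17 (adjusted p = 0.624), a difference of response that was not tested. The wild-type call of ID2 was lost without 72 h replicate 1 (0.48, adjusted p = 0.127) and without untreated replicate 1 or 2 (0.78 and 0.82).

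Of 14 intermediate filament and lamin genes, 3 rose and 3 fell in either genotype (median 0.17 in knockout and 0.14 in wild-type cells). DES, which encodes desmin, a filament protein of muscle, fell, with changes of −1.21 in knockout and −1.12 in wild-type cells. LMNA and LMNB2, which line the nucleus, fell too, with −1.28 and −0.76 in knockout and −0.92 and −0.69 in wild-type cells, and LMNB2 did not pass after quantile normalization, nor in wild-type cells without 72 h replicate 3 (−0.49). SYNM, a filament protein that joins with vimentin or desmin, rose by 0.60 in both. VIM is also a textbook mesenchymal gene. Of 14 other genes listed with that program, 1 rose and 4 fell in either genotype (median −0.06 and −0.07). The list includes CDH1, an epithelial gene, which did not pass in either genotype. SPARC, a matrix protein, fell, with changes of −2.19 in knockout and −2.27 in wild-type cells. The zinc finger repressors ZEB2 and ZEB1 changed by −1.92 and −1.28 in knockout and by −1.90 and −1.32 in wild-type cells, and the receptor TGFBR1 by −1.02 in knockout and −1.17 in wild-type cells.

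Of 11 measured partners of WT1, 2 rose and 4 fell in knockout cells and 1 rose and 4 fell in wild-type cells (median −0.33 and −0.20). The genes that fell in both were AMER1 (−1.06 in knockout and −1.11 in wild-type cells), WTAP, a part of the mRNA methylation complex (−0.88 and −1.01), the splicing factor U2AF2 (−1.13 and −0.997) and the acetyltransferase EP300 (−0.58 and −0.89). EP300 passed in knockout cells in 21 of 28 other settings. It did not after quantile normalization (−0.31), without the 4 arrays apart (−0.47), without any 1 untreated knockout array, or without knockout 72 h replicate 1 or 2 (−0.62 to −0.47).

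WT1 and CYTL1 belong to immature blood cells. Of 17 measured genes of that kind, 5 rose and 4 fell in knockout cells (median 0.21). In wild-type cells 4 rose and 4 fell (median 0.11). Of the genes that rose, all but CD38 had low log2 signals at 72 h, 3.98 to 5.36 in knockout and 4.41 to 5.62 in wild-type cells. These lie under the array medians, with no detection call, while the genes that fell had 7.98 to 11.28 untreated. BCL2, which blocks cell death, changed by −2.02 in knockout and −2.01 in wild-type cells, and MYB, a factor of cycling progenitors, by −0.94 and −1.15. CD38, a surface enzyme that is also a known retinoid target, rose by 1.87 and 2.16. MECOM, a stem cell factor, was higher by 0.75 and 0.97, but at a low log2 signal. It gave 5.36 with ATRA and 4.61 untreated in knockout cells, and 5.62 and 4.65 in wild-type cells. Of 12 measured genes of the promyelocyte stage, 5 rose and 5 fell in knockout cells and 7 rose and 5 fell in wild-type cells (median 0.17 and 0.30). CTSG, a granule protease, changed by −2.93 in knockout and −2.48 in wild-type cells and RNASE2, a granule ribonuclease, by −1.55 and −1.54, calls lost without 72 h replicate 1 in knockout (−1.13) or 72 h replicate 3 in wild-type cells (−1.20), whereas CEBPE, a factor of late granulocytes, rose by 1.55 and 1.81 and the growth factor CLEC11A by 0.82 and 1.16.

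To set each of the 5 genes in its place on the chromosome, the nearest protein-coding gene with a probe set of its own on either side was read in RefSeq (GRCh38.p14), a step chosen after the data were seen. Genes without such a probe set were passed over, so a gene named here need not be the next on the chromosome. CYTL1 lies between MSX1 and EVC2, neither of which passed in any ATRA comparison, with changes between −0.20 and 0.09. VIM lies 26568 bases from TRDMT1, an RNA methyltransferase, which fell at 48 h and did not pass at 72 h. Its 48 h changes were −0.81 in knockout cells (adjusted p = 0.00308) and −0.64 in wild-type cells (adjusted p = 0.0151). Its log2 signal was low, 4.90 at 48 h and 5.71 untreated in knockout cells, and 4.91 and 5.54 in wild-type cells. Without the 4 arrays apart, the 48 h change of TRDMT1 in wild-type cells was −0.47 and did not pass (adjusted p = 0.0695), nor did it without wild-type 48 h replicate 1 alone (−0.47) or untreated replicate 2 (−0.59). OOSP2, 8620 bases from MS4A3, passed as higher in knockout cells at 72 h, by 0.71 (adjusted p = 0.0188), at a low log2 signal of 4.32 with ATRA and 3.603 untreated. It did not pass after quantile normalization or without knockout untreated replicate 1 or 2 or 72 h replicate 1 (0.64 to 0.67), while MS4A6A on the other side passed nowhere.

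GLRX3, beside EBF3, was higher by 0.33 and 0.31 in knockout cells at 48 and 72 h (adjusted p = 0.035 and 0.0416), and RCN1, beside WT1, by 0.36 in knockout cells at 72 h and 0.36 in wild-type cells at 48 h (adjusted p = 0.0409 and 0.0403). These 4 calls were lost with each array centred on its own median (0.25 to 0.34) and grew after quantile normalization (0.59 to 0.65, largest adjusted p = 0.000963). Without the 4 arrays apart GLRX3 no longer passed (0.20 and 0.25, adjusted p = 0.318 and 0.111), nor did RCN1 in wild-type cells (0.25, adjusted p = 0.0535). They held in 20 and 17 of the 28 other settings for GLRX3 and in 19 for either RCN1 call, and were lost without any 1 of the untreated arrays of their genotype. MGMT, ST8SIA6 and EIF3M passed in none of the 4 comparisons. Of the 10 flanking genes, only TRDMT1, whose signal was low, was called lower in any ATRA comparison.

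**Figure D5:**
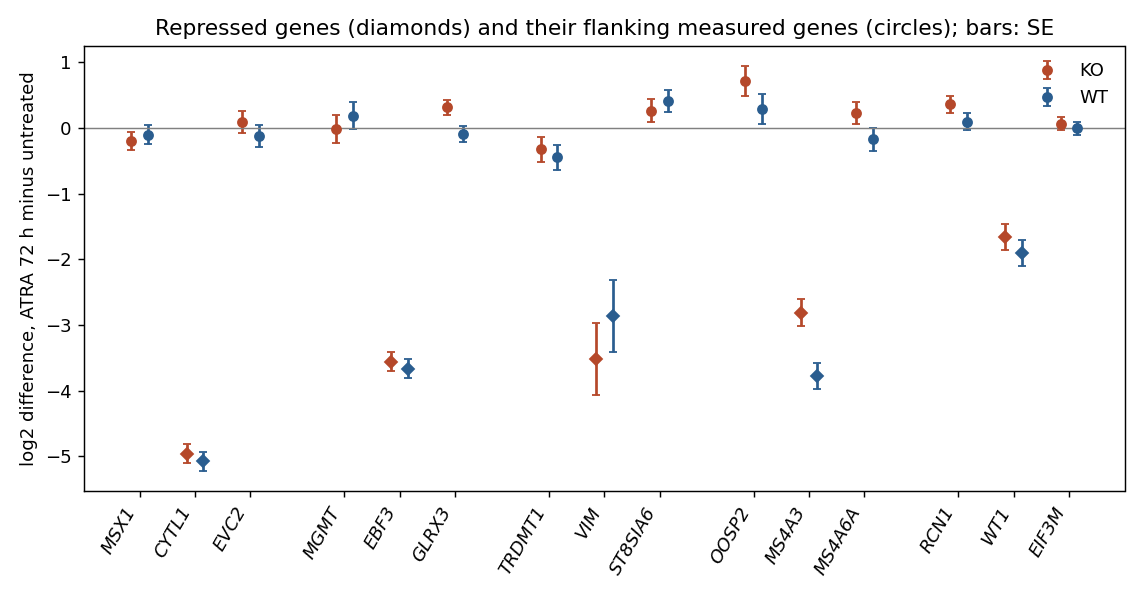
Log2 difference of 72 h of ATRA minus untreated for the 5 repressed genes (diamonds) and the measured gene on either side of each (circles), knockout in red and wild-type in blue, with SE bars. The flanking genes lie between −0.45 and 0.71, and the repressed genes between −5.08 and −1.67.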

How the data were processed

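RNA of 18 NB4 samples was hybridised, per the labels' protocols, as biotin-labelled cDNA to Affymetrix whole-transcript gene arrays. The authors deposited 1 log2 value per probe set and array, between 0.73 and 13.56 with 2 decimals. The log2 scale was inferred from that range, and folds rest on it. How the authors normalized the arrays is not given in the sources used here.

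Of 33297 probe sets, 19460 name exactly 1 gene, 1754 several and 12083 none. Groups were taken from the labels, and no array was left out of the main results. All 18 arrays entered a limma fit (version 3.58.1, R 4.3.3) with 6 group means and eBayes moderation with a trend. P-values are 2-sided and adjusted by Benjamini-Hochberg over all probe sets, with calls at an adjusted p under 0.05. The fit was tested on simulated data with independent arrays and 1 SD per probe set for all groups. That simulation did not cover a spread that differs between groups. No detection call was used, and the 3 arrays per group limit the precision. Intervals are 95% intervals of that fit, which takes 1 spread for all groups.

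The 5 genes, the 7 lists of related genes (103 genes, 92 measured) and the tests were chosen with earlier results of these data known. Named genes are the 5, TGM2, the 3 nearest genes by pattern and up to 4 called genes per list with the largest change at 72 h in wild-type cells. Flanking genes and those that vary like VIM were added after seeing the data. Promoter windows came from RefSeq (GRCh38.p14), and all 5 genes matched.

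Whether replicate numbers pair the arrays was checked by correlating deviations from the group means over all probe sets. Same-numbered arrays of the genotypes gave r = 0.103, 0.160 and 0.138 at 72 h. At 48 h r was 0.196, 0.194 and 0.089, and untreated −0.060, −0.056 and −0.128. Arrays with different numbers gave r between −0.163 and 0.030 at 72 h, −0.238 and 0.094 at 48 h, and −0.041 and 0.099 untreated. Between 72 and 48 h same-numbered arrays gave 0.095, 0.137 and 0.186 in wild-type cells. In knockout cells they gave −0.027, −0.002 and 0.051. The main fit took no arrays as paired, and pairing entered only as the replicate block among the alternatives. The alternatives were quantile normalization, centring on array medians, 2 filters, 2 variance settings, the replicate block, 2-group fits, group weights, each array left out and, added after seeing the data, 4 arrays left out.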

Additional observations from a re-analysis of the deposited data

How the results depend on the processing

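In none of the 5 tested comparisons was a member called under any of 28 other settings, except that 1 (CYTL1, −0.20, adjusted p = 0.0386) was called between untreated genotypes when only those 2 groups were fitted. All 560 values of the falls kept their sign, and 689 of 700 values of the tested differences kept their direction and side of the threshold. EBF3 in untreated knockout minus wild-type cells was 0.01 with arrays centred on their medians, against −0.02. With 1 array left out at a time, the sign turned for WT1 in untreated knockout minus wild-type cells (−0.0167 to 0.0933), VIM at 48 h (−0.757 to 0.533), and CYTL1 (−0.257 to 0.0433), EBF3 (−0.05 to 0.215) and WT1 (−0.0133 to 0.577) at 72 h. It also turned between 72 and 48 h for MS4A3 in knockout cells (−0.065 to 0.375) and for EBF3 (−0.262 to 0.00333) and WT1 (−0.537 to 0.0533) in wild-type cells. The arrays whose loss turned the sign were knockout untreated replicate 1 (WT1), knockout 48 h replicate 1 and wild-type 48 h replicate 3 (VIM), knockout 72 h replicates 1 (CYTL1) and 2 (MS4A3), and wild-type 72 h replicate 1 (the rest). The cause was not tested.

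The fit with the replicate block changed no call of a member, and MS4A3 at 72 h had an adjusted p of 0.121 with it. Of other named genes it brought ERRFI1 in wild-type cells and NFKB2 at 72 h in knockout cells past the threshold. Among other named genes the sign turned for MS4A13, ATRA 72 h minus untreated, knockout (−0.133 after quantile normalization), and with 1 array left out for ID2 at 72 h (−0.00333 to 0.277) and NFKB2 at 48 h (−0.0833 to 0.662), both in knockout cells. Calls over all probe sets moved far more than the members: between genotypes from 2 to between 1 and 309 untreated, from 7 to between 0 and 1546 at 48 h, and from 32 to between 0 and 495 at 72 h. The highest of these come from group weights (untreated) and from leaving out the 4 arrays apart on the first component, a choice made after seeing the data that leaves 1 knockout array at 48 h. Small list counts moved too, such as 0 to 4 MS4A relatives higher in knockout cells and 0 to 2 partners of WT1 higher in either genotype. No other probe set of the 5 genes exists in the annotation used, so that alternative was not run. The intervals use 1 spread for all 6 groups, wider than that of the untreated arrays, and 3 arrays per group with no detection call limit what could be seen.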
